A study of Homo sapiens with 12 samples.

Results

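The extracellular matrix genes described here encode collagen chains, laminin chains, nidogen, fibrillins, fibulins, thrombospondins, versican and EDIL3, together with the enzymes that modify, crosslink or cut the matrix. They were chosen by symbol: collagen, laminin, LOX, fibrillin, fibulin, thrombospondin, SPARC, SPOCK, nidogen, MMP, TIMP, ADAM, ADAMTS, P4HA and PLOD families plus FN1, TNC, HSPG2, AGRN, VCAN and EDIL3, leaving out MMP9 and symbols with a hyphen. The rule found 64 of the 8579 genes in the table, and 62 of them belong to a role in the matrix. The other 2, ADAM1A and MMP24OS, matched by spelling. RNA was measured in A375, an established human melanoma cell line with an activating BRAF mutation, in 4 groups of 3 libraries. COMBO cells received SEL201 at 2.5 µM and OTX015 at 50 nM, SEL201 cells and OTX015 cells received that agent alone at the same concentration, and UNTREATED cells carry DMSO, the drug solvent, as their treatment label, all for 72 h. SEL201 blocks MNK kinases, whose substrate eIF4E is the cap-binding factor of translation. OTX015 displaces BET proteins from acetylated histones. All groups are the same cell line, so they model tumour cells without the stromal cells that make much of a tumour's matrix in the body. The labels do not say that the libraries of a group came from separate cultures. The p-values thus rest on a spread between libraries that may be technical.

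The extracellular matrix has 2 main architectures. Interstitial matrix is built of fibrillar collagens, decorated by fibril-associated collagens and hardened by lysyl oxidases, whereas basement membranes are sheets of laminin trimers and type IV collagen joined by nidogens. Matrix metalloproteinases (MMPs) cut collagens and other matrix proteins, ADAMs shed membrane proteins, and ADAMTS proteases cut proteoglycans or trim procollagens. Melanoma cells make part of the matrix they attach to, and they cross basement membranes when they invade.

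Total counts over the genes of the table were 15146071 to 23247709 in COMBO libraries, 16382375 to 22626418 with SEL201, 18917153 to 21834086 with OTX015 and 20346729 to 24111541 in UNTREATED libraries. These are not sequencing depths, because mean counts in the table ran only from 78.7 to 9159 and genes outside that range were not analysed here. No TIMP was among the measured genes, and neither were FN1, SPARC, TNC, COL4A1 or MMP2. Libraries numbered 3 stood apart from the others of their group in several of the genes below. Same-numbered libraries of different groups departed from their group means in the same way. Of 12 melanocyte lineage markers, 7 were measured (MITF, PMEL, MLANA, S100B, S100A1, MLPH and GPNMB), and their summed level was 502.6 to 505.9 CPM (counts scaled to a common library total, here that of the genes of the table) in COMBO, 544.3 to 569.4 CPM in SEL201, 531.3 to 556.8 CPM in OTX015 and 682.4 to 746.4 CPM in UNTREATED. With COMBO, GPNMB (213 ± 16.9 CPM in COMBO and 443 ± 26.9 CPM in UNTREATED, SD, n = 3), MLPH and MITF were lower, S100B (log2 change 0.94, SE 0.10, edgeR adjusted p = 3.4e-06) and MLANA were higher, and PMEL and S100A1 were not called. None of 5 leukocyte markers was measured, KDR was the sole measured endothelial marker of 5 and KRT8 the sole epithelial marker of 5.

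The matrix genes took a smaller share of counts in every treated library than in any UNTREATED library. This share was 0.508% ± 0.0049 in COMBO, 0.561% ± 0.0045 in SEL201, 0.523% ± 0.012 in OTX015 and 0.657% ± 0.014 in UNTREATED libraries (SD, n = 3). All 64 genes passed the filter on low counts and were tested. Against UNTREATED, COMBO raised 9 of the 64 genes and lowered 42 (edgeR's quasi-likelihood test, Benjamini-Hochberg adjusted over 8579 genes, adjusted p under 0.05), where 28.3% of all genes were higher and 29.6% lower. OTX015 raised 9 and lowered 37, where 23.3% of all genes were higher and 24.7% lower. SEL201 raised 6 and lowered 20, where 10.1% of all genes were higher and 11.1% lower. The members' median log2 change was -0.60 with COMBO, -0.62 with OTX015 and -0.20 with SEL201, and the median over all genes was 0.00 in each. Among falls of at least 2-fold there were 23 members with COMBO (6.81% of all genes), 20 with OTX015 (4.36% of all genes) and 8 with SEL201 (1.26% of all genes). Rises of at least 2-fold were rare, with 3 members in COMBO (2.03% of all genes) and 2 in OTX015 (0.863% of all genes). With SEL201 edgeR called 0 members with a rise of at least 2-fold (0.14% of all genes), and the largest rise at any p was that of MMP17, at 0.75 on the log2 scale. These comparisons share the 3 UNTREATED libraries. Without the 4 libraries numbered 3, there were 12 higher and 43 lower members with COMBO (27% and 28.8% of all genes), 10 and 39 with OTX015 (21.6% and 23.5%), and 6 and 23 with SEL201 (9.2% and 11.1%). With the replicate number as a block, 14 members were higher and 46 lower with COMBO (33.5% and 34.2% of all genes), 11 and 43 with OTX015 (29.7% and 29.9%), and 10 and 29 with SEL201 (18% and 19.1%). The block ended none of the calls made without it, including those given below as lost in another alternative.

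**Figure D1:**
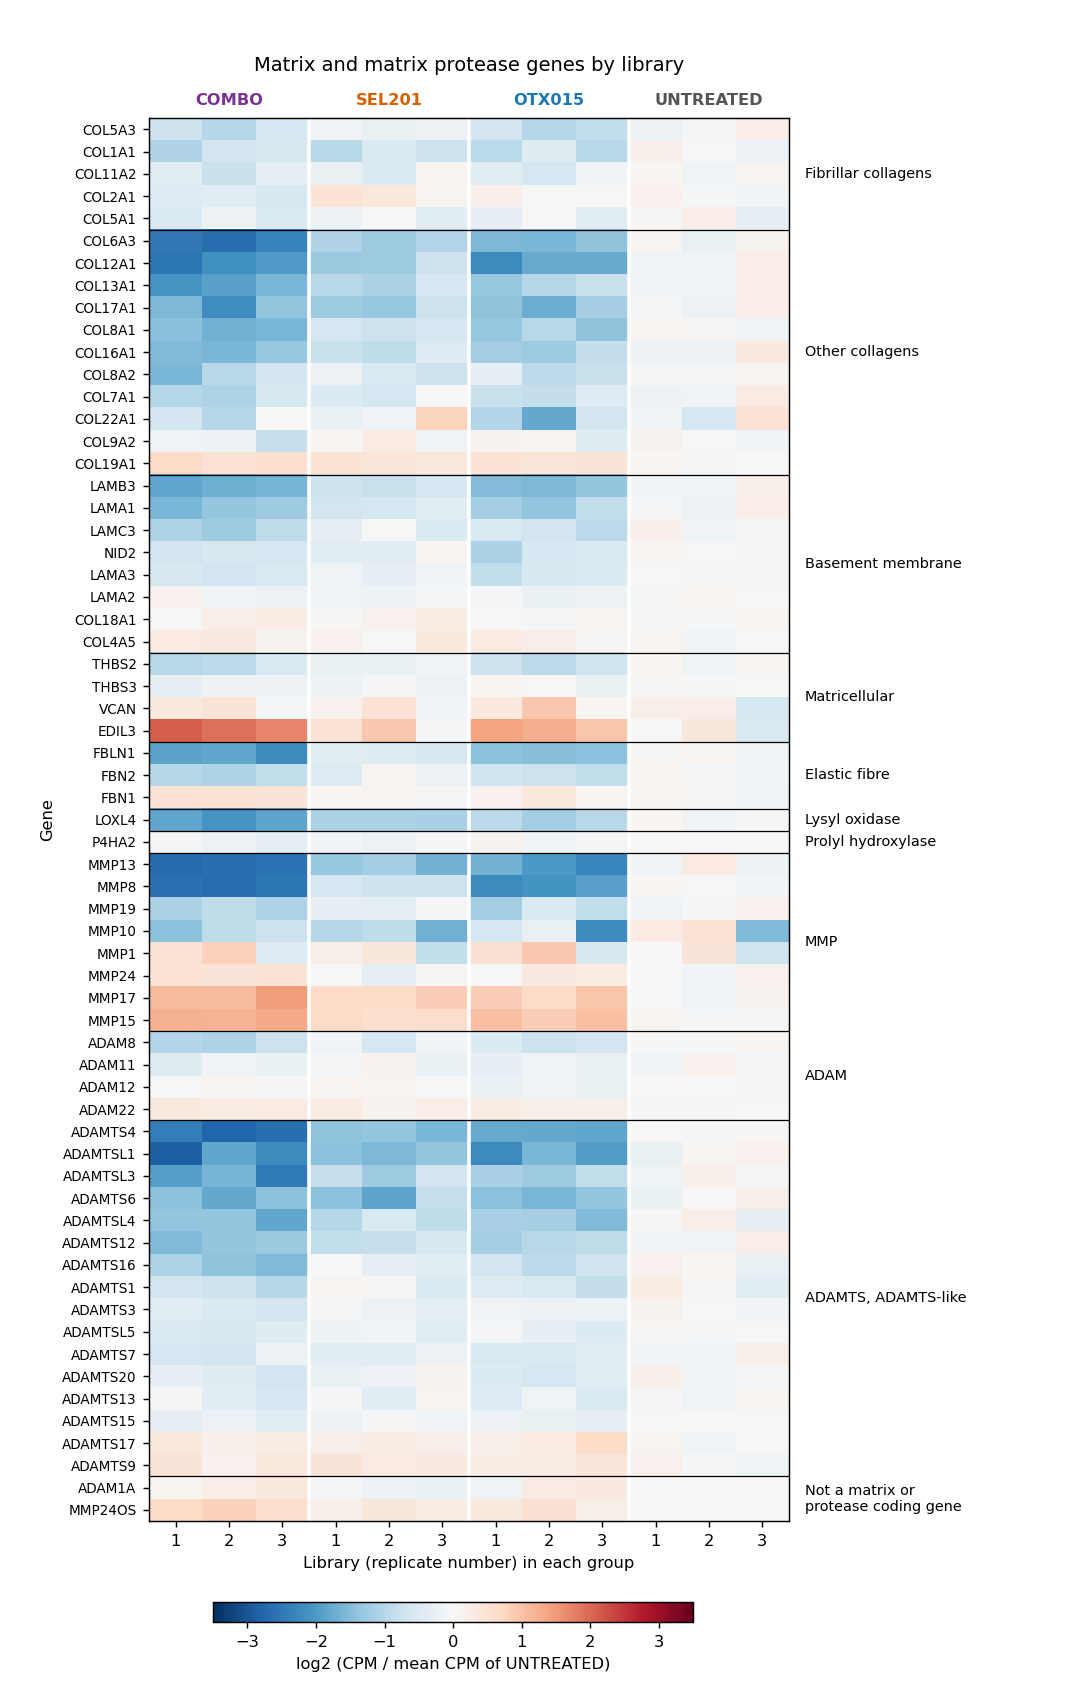
Level of 63 of the 64 genes in each of the 12 libraries, as log2 of its CPM over the mean CPM of the UNTREATED libraries (colour; blue is lower and red is higher), with genes in rows grouped by role and libraries in columns by group. Blue predominates in collagens, laminins and ADAMTS genes in COMBO and OTX015, while MMP15, MMP17, EDIL3 and COL19A1 are red in these groups.

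The fall was spread over most roles, but not all. With COMBO, 5 of 5 fibrillar collagens, 8 of 11 other collagens, 6 of 9 basement membrane genes and 13 of 16 ADAMTS and ADAMTS-like genes were lower. Over all genes, 29.6% were lower and 28.3% higher. Of the 8 MMPs 3 were higher and 3 lower, shares near those over all genes. Of 4 ADAM genes 1 was higher and 1 lower (median log2 change -0.12). Of 4 matricellular and adhesive genes 1 was higher and 2 lower (median 0.02). Median log2 changes were -0.48 for fibrillar collagens, -1.49 for other collagens, -0.61 for basement membrane genes, -0.65 for ADAMTS and ADAMTS-like genes and -0.31 for MMPs. In these bulk libraries, fewer cells that express a gene and less RNA of it per cell cannot be told apart.

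**Figure D2:**
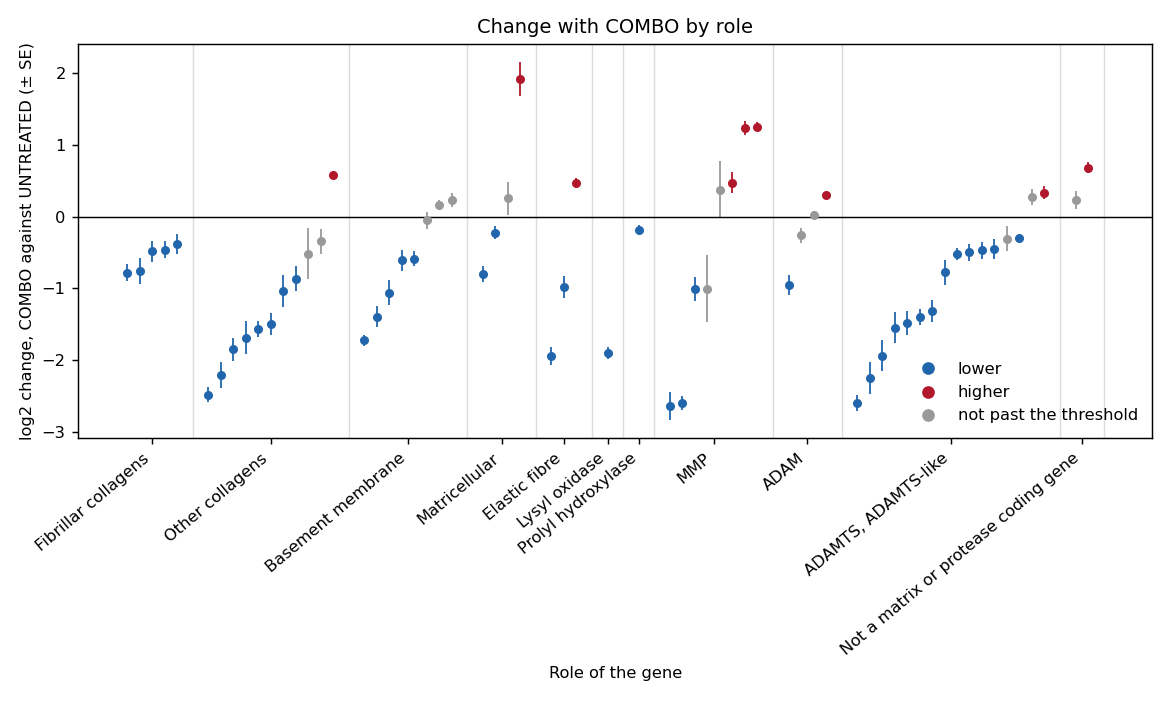
Log2 change of 63 of the 64 genes in COMBO against UNTREATED (vertical axis, point, with its SE as a bar), ordered by role along the horizontal axis and coloured by direction at an adjusted p under 0.05. Most roles lie below 0, and the 3 highest points are EDIL3, MMP15 and MMP17.

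Collagens, 18 of which were measured, fell more often than they rose. With COMBO 13 were lower and 1 higher, with OTX015 11 were lower and 1 higher, and with SEL201 7 were lower and 1 higher. Over all genes, 29.6% were lower and 28.3% higher with COMBO, 24.7% and 23.3% with OTX015, and 11.1% and 10.1% with SEL201. With the replicate block, 15 were lower and 3 higher with COMBO (COL4A5, COL18A1 and COL19A1), 13 were lower and 1 higher with OTX015, and 10 were lower and 3 higher with SEL201 (COL2A1, COL18A1 and COL19A1). The block called 34.2% of all genes lower and 33.5% higher with COMBO, 29.9% and 29.7% with OTX015, and 19.1% and 18% with SEL201. The fibrillar collagens changed modestly. COL1A1, a chain of type I collagen, had 7.24, 9.38 and 10.2 CPM in COMBO, 7.70, 10.5 and 9.02 in SEL201, 7.81, 11.2 and 7.72 in OTX015 and 17.1, 14.9 and 13 in UNTREATED libraries. Every treated library lay below every UNTREATED one, and the treated groups overlapped one another. Its log2 change was -0.76 with COMBO (SE 0.18, edgeR adjusted p = 0.0025), -0.75 with OTX015 (adjusted p = 0.0036) and -0.73 with SEL201 (adjusted p = 0.01, and 0.055 without SEL201 replicate 1). COL5A3, a chain of the type V collagen that joins fibrils, averaged 28.5 ± 3.85 CPM in COMBO, 42.4 ± 1.75 in SEL201, 27.5 ± 3.20 in OTX015 and 48.9 ± 7.33 in UNTREATED (SD, n = 3), and its COMBO change of -0.78 had the lowest adjusted p of the fibrillar collagens (edgeR, 8.4e-05). COL5A1, another type V chain, and COL11A2, a cartilage fibril chain, had smaller changes with COMBO, of -0.39 (adjusted p = 0.031) and -0.48 (adjusted p = 0.014). The COL5A1 call was lost without any of COMBO replicates 1 and 3 and UNTREATED replicates 1 and 2 (adjusted p = 0.074 to 0.16), and that of COL11A2 without COMBO replicate 2 (adjusted p = 0.073). With the replicate block the edgeR adjusted p was 7.6e-09 for COL5A1 and 2.5e-07 for COL11A2. The COMBO and UNTREATED libraries of COL5A1 overlapped, at 187.4 to 237.7 CPM in COMBO and 214.4 to 314.5 CPM in UNTREATED.

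The largest collagen falls were outside the fibrillar class. COL6A3, a chain of the beaded type VI microfilaments around cells, had 66.5, 60.5 and 74.4 CPM in COMBO, 181, 158 and 184 in SEL201, 126, 123 and 141 in OTX015 and 400.5, 315 and 409 in UNTREATED libraries. No 2 of the 4 groups overlapped, and COMBO was lowest. Its level was 5.59-fold lower with COMBO (log2 change -2.48, SE 0.10, edgeR adjusted p = 2.6e-10), against log2 changes of -1.52 with OTX015 and -1.1 with SEL201.

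COL12A1, a fibril-associated collagen, had 48.3, 62.6 and 69.9 CPM in COMBO, 114, 114 and 168 in SEL201, 59.4, 81.3 and 82.2 in OTX015 and 250.3, 254 and 329 in UNTREATED libraries. COMBO and OTX015 overlapped, and both lay below SEL201, which lay below UNTREATED. The COMBO change was -2.21 (SE 0.18, edgeR adjusted p = 1.4e-07). COL13A1, a transmembrane collagen of adhesion sites, had 41.1, 45.9 and 56.7 CPM in COMBO, 88.3, 80.4 and 114 in SEL201, 69.2, 86.4 and 100.3 in OTX015 and 158, 157 and 201 in UNTREATED libraries. SEL201 and OTX015 overlapped in this gene, and the COMBO change was -1.85 (SE 0.16, edgeR adjusted p = 2.9e-07). COL17A1, the transmembrane collagen of hemidesmosomes, fell by 1.69 on the log2 scale with COMBO, COL8A1, a short-chain network collagen, by 1.57, and COL16A1, a fibril-associated collagen, by 1.49. COL8A2 fell by 1.04 and COL7A1, which forms the anchoring fibrils beneath epithelial basement membranes, by 0.86 with COMBO.

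Without the replicate block, COL19A1 was the single collagen called higher in any treatment. This fibril-associated collagen, found near basement membranes, had 489, 438 and 451 CPM in COMBO, 422, 413 and 397 in SEL201, 430.4, 412 and 421 in OTX015 and 323, 294 and 300.2 in UNTREATED libraries. Every treated library lay above every UNTREATED one. Its log2 change was 0.59 with COMBO (SE 0.05, edgeR adjusted p = 1.6e-07), 0.46 with OTX015 and 0.43 with SEL201. Of the other non-fibrillar collagens, COL22A1 had a COMBO change of -0.52 (adjusted p = 0.23) and COL9A2 of -0.34 (adjusted p = 0.1), and with the replicate block these had adjusted p of 0.0051 and 0.00029. COL22A1 was lower with OTX015 (-1.07, adjusted p = 0.026, and 9.6e-07 with the replicate block). That call was lost without OTX015 replicate 1 or 2 or UNTREATED replicate 3 (adjusted p = 0.059 to 0.12). COL8A2 was lower with OTX015 too (-0.66, adjusted p = 0.022), and lost that call without OTX015 replicate 2 or 3 or UNTREATED replicate 3 (adjusted p = 0.058 to 0.092). It was also lost without the number 3 libraries together.

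Among the basement membrane genes, LAMB3 and LAMA3 encode a beta and an alpha chain of laminin, the cell-binding glycoprotein of these sheets. LAMB3 had 124, 133 and 142 CPM in COMBO, 265, 257 and 288 in SEL201, 152, 149 and 170.5 in OTX015 and 412, 411 and 495 in UNTREATED libraries. No 2 groups overlapped. The log2 change was -1.72 with COMBO (SE 0.08, edgeR adjusted p = 6e-10), -1.48 with OTX015 and -0.70 with SEL201. LAMA3 had 23.6, 22.1 and 24.3 CPM in COMBO, 31.6, 27.5 and 32.5 in SEL201, 19.4, 23.7 and 25.3 in OTX015 and 35.6, 33.3 and 35.97 in UNTREATED libraries. Here the COMBO and OTX015 libraries overlapped and SEL201 lay between them and UNTREATED. Its changes were -0.58 with COMBO (SE 0.10, edgeR adjusted p = 0.00022), -0.61 with OTX015 (adjusted p = 0.00022) and -0.20 with SEL201 (adjusted p = 0.2).

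The promoter sequences of LAMA3 and LAMB3 are shown with those of ADAMTS12 and MMP10, because these are the 4 members whose windows carry the same letters. The letters TGANTCA, the site of AP-1 transcription factors, were searched on both strands of RefSeq promoter windows (GRCh38.p14, 250 bases before to 50 after each start), where 46 of the 64 genes had 55 windows. The motif is its own reverse complement, and it overlapped neither of the other motifs searched in these 4 windows. Each line gives 130 bases on the gene's own strand, with the matching letters in capitals. The LAMA3 window is chr18:23872890-23873019 on the plus strand, and its matches begin 125 and 69 bases before the start. The LAMB3 window is chr1:209651375-209651504 on the minus strand, with a match 67 bases before the start. The ADAMTS12 window is chr5:33891991-33892120 and the MMP10 window is chr11:102780629-102780758, both on the minus strand, with matches 84 and 67 bases before the start.
LAMA3: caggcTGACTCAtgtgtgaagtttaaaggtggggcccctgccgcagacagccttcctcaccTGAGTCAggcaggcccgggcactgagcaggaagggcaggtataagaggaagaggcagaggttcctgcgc
LAMB3: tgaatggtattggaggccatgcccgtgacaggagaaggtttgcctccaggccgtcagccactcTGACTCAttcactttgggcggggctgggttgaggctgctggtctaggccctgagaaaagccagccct
ADAMTS12: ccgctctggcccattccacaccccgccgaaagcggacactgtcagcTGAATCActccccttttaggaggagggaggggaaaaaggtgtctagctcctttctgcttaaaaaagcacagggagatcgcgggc
MMP10: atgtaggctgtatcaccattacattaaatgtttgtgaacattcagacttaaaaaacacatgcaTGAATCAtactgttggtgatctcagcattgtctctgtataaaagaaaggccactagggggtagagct

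These letters stood in 4 of the 55 member windows (7.3%), against 7.7% of all 35116 windows. The letters GGAATG, read by TEAD factors, stood in 11 member windows (20.0%), against 14% of all windows, and CACGTG, the E-box, in 3 (5.5%), against 7.3% of all windows. A match describes letters in a window and is not evidence of binding. Of the genes printed, LAMA3, LAMB3 and ADAMTS12 were lower with COMBO, whereas MMP10 was not called.

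Among the other basement membrane genes, LAMA1, the laminin chain of early embryonic basement membranes, averaged 15.7 ± 2.00 CPM in COMBO, 28.3 ± 3.10 in SEL201, 18.8 ± 3.38 in OTX015 and 41.0 ± 6.53 in UNTREATED (SD, n = 3). Its COMBO change was -1.40 (SE 0.15, edgeR adjusted p = 2.2e-06). LAMC3 fell by 1.06 and NID2, which links laminin to type IV collagen, by 0.61 on the log2 scale with COMBO. NID2 shares 21.6% of its exon bases with RTRAF on the opposite strand. The strand setting of the counting is not given in the sources used here, so reads from those shared bases may include some of RTRAF. LAMA1 was also lower with SEL201 (-0.54, adjusted p = 0.016, and 1.3e-05 with the replicate block). That call was lost without SEL201 replicate 1 or 2 or UNTREATED replicate 3 (adjusted p = 0.058 to 0.07). Laminin chain LAMA2 had a COMBO change of -0.05 (SE 0.12, adjusted p = 0.74). The type IV collagen chain COL4A5 had a COMBO change of 0.24 (adjusted p = 0.051) and COL18A1, the source of endostatin, of 0.16 (adjusted p = 0.053). With the replicate block both were higher, at adjusted p of 0.011 and 0.00065.

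**Figure D3:**
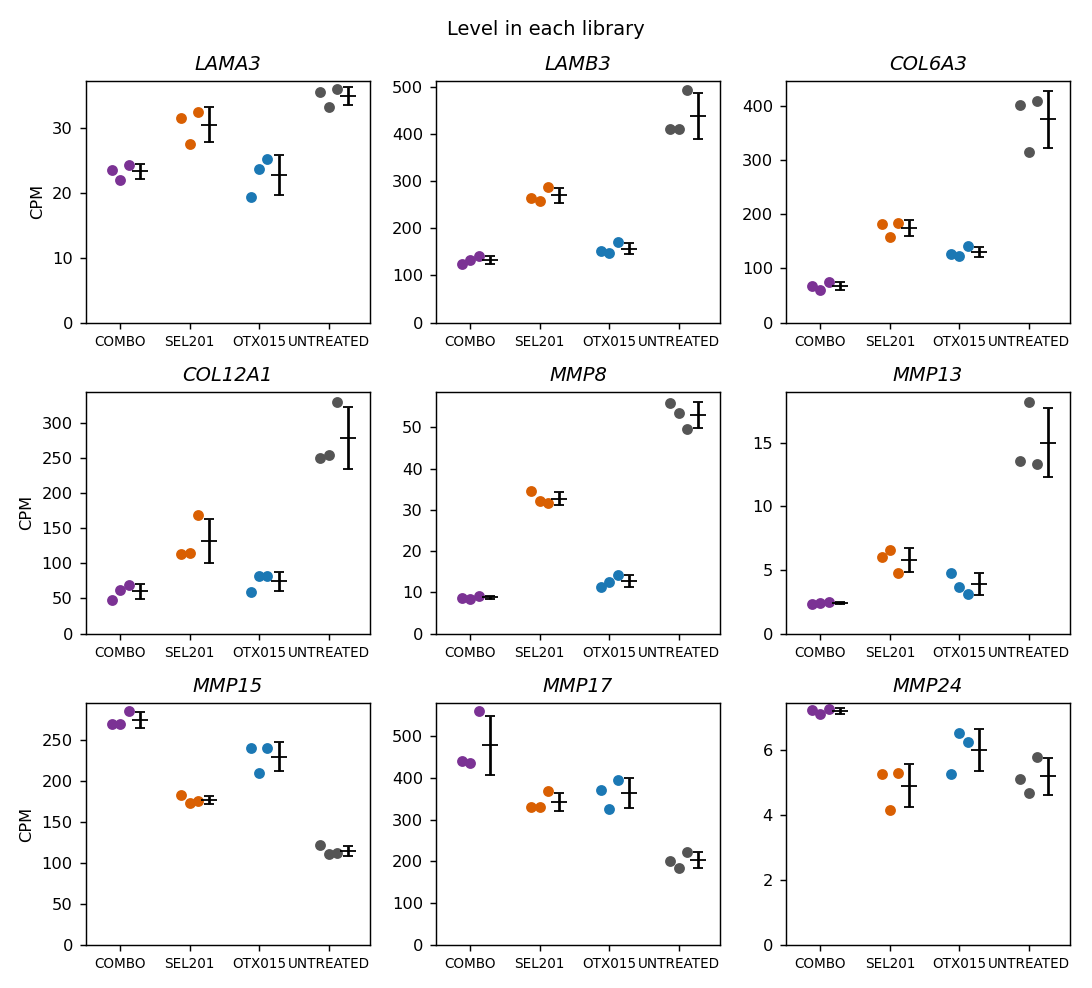
Level in CPM (vertical axis, from 0) of LAMA3, LAMB3, COL6A3, COL12A1 and 5 MMPs in each library (points) of the 4 groups (horizontal axis), with the mean and SD of each group as a black bar (n = 3). LAMB3, COL6A3, COL12A1, MMP8 and MMP13 are lowest in COMBO and highest in UNTREATED, whereas MMP15 and MMP17 are highest in COMBO.

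Adhesive and elastic fibre genes went in both directions. EDIL3, a secreted ligand of integrins, had 21.8, 19.4 and 16.5 CPM in COMBO, 7.13, 9.61 and 4.82 in SEL201, 13.03, 12.2 and 9.91 in OTX015 and 5.02, 6.60 and 3.52 in UNTREATED libraries. COMBO lay above OTX015, OTX015 above the rest, and SEL201 overlapped UNTREATED. It had the largest rise of the 64 genes, 3.79-fold with COMBO (log2 change 1.92, SE 0.24, edgeR adjusted p = 8.8e-06) and 2.30-fold with OTX015 (adjusted p = 0.00093). With SEL201 the log2 change was 0.51 (adjusted p = 0.17, and 0.013 with the replicate block). THBS2, an anti-angiogenic thrombospondin, fell by 0.80 on the log2 scale with COMBO (SE 0.12, edgeR adjusted p = 3.6e-05) and by 0.78 with OTX015. THBS3 fell by 0.22 with COMBO (adjusted p = 0.039), a call lost without any single COMBO or UNTREATED library or SEL201 replicate 1 (adjusted p = 0.05 to 0.13), and it shares 19.9% of its exon bases with a gene on the opposite strand. VCAN, a large chondroitin sulphate proteoglycan, ranged from 83.8 to 119 CPM in COMBO, 80.8 to 122 CPM in SEL201, 92.1 to 166 CPM in OTX015 and 58.5 to 102 CPM in UNTREATED libraries. Its lowest value in every group was in the number 3 library, and its COMBO change of 0.26 had an adjusted p of 0.36, or 0.0024 with the replicate block.

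FBLN1, a fibulin of elastic fibres and basement membranes, had 5.26, 5.41 and 4.17 CPM in COMBO, 15.01, 14.3 and 13.05 in SEL201, 7.12, 6.84 and 7.12 in OTX015 and 19.9, 20.1 and 17.8 in UNTREATED libraries. No 2 groups overlapped. The log2 change was -1.95 with COMBO (SE 0.12, edgeR adjusted p = 1.4e-08), -1.45 with OTX015 and -0.45 with SEL201. The SEL201 call was lost without SEL201 replicate 3 or UNTREATED replicate 1 or 2 (adjusted p = 0.05 to 0.053). The fibrillins, which form the microfibrils of elastic fibres, moved apart. FBN2 fell by 0.98 with COMBO (adjusted p = 7.9e-05), whereas FBN1 rose, with 424, 423 and 414 CPM in COMBO, 317, 322 and 315 in SEL201, 339.6, 394 and 317 in OTX015 and 321, 313 and 278 in UNTREATED libraries. COMBO stood above all 9 other libraries in FBN1, and its log2 change was 0.47 (SE 0.07, edgeR adjusted p = 4.1e-05). FBN1 was higher with OTX015 too (0.20, adjusted p = 0.024), a call lost without OTX015 replicate 2 or UNTREATED replicate 3 (adjusted p = 0.14 and 0.097). That call was also lost when only the compared groups were fitted.

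Of the matrix-modifying enzymes, LOXL4, a lysyl oxidase-like enzyme that crosslinks collagen and elastin, had 118, 99.6 and 116 CPM in COMBO, 193, 194 and 188 in SEL201, 221, 182 and 213 in OTX015 and 436, 382 and 430.0 in UNTREATED libraries. SEL201 and OTX015 overlapped, COMBO lay below both, and UNTREATED lay above all. Its level was 3.74-fold lower with COMBO (log2 change -1.90, SE 0.08, edgeR adjusted p = 2.5e-10), 2.17-fold lower with SEL201 and 2.02-fold lower with OTX015. P4HA2, a catalytic subunit of collagen prolyl 4-hydroxylase, changed less, with 252 ± 21.8 CPM in COMBO and 286 ± 4.22 CPM in UNTREATED (SD, n = 3). Its COMBO change of -0.18 (edgeR adjusted p = 0.035) lost the call without COMBO replicate 2 or 3 or any single UNTREATED library (adjusted p = 0.055 to 0.15), and without the number 3 libraries (adjusted p = 0.21). With the replicate block the adjusted p was 0.00074. P4HA2 also shares 14.8% of its exon bases with P4HA2-AS1 on the opposite strand.

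Of the 5 secreted MMPs measured, MMP8, MMP13 and MMP19 fell with COMBO, while MMP1 and MMP10 did not pass the threshold. With the replicate block MMP1 was higher with COMBO and with OTX015 (0.38, edgeR adjusted p = 2.4e-07), and MMP10 was lower with COMBO. The 3 measured membrane-type MMPs were higher with COMBO, where 28.3% of all genes were higher and 29.6% lower. With so few genes, secreted and membrane-type MMPs were not compared by a test. MMP15 spans the membrane, as does MMP24, and MMP17 is anchored in it by a lipid. MMP15 had 269.8, 269 and 286 CPM in COMBO, 182, 173 and 176 in SEL201, 240.1, 209.7 and 240.1 in OTX015 and 122, 111 and 112 in UNTREATED libraries. No 2 groups overlapped, and COMBO was highest. The log2 change was 1.26 with COMBO (SE 0.06, edgeR adjusted p = 6.2e-10), 1 with OTX015 and 0.62 with SEL201.

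MMP17 had 439.7, 436 and 560.0 CPM in COMBO, 329.8, 329 and 368 in SEL201, 370.1, 326 and 396 in OTX015 and 201, 185 and 223 in UNTREATED libraries. SEL201 and OTX015 overlapped, and the number 3 library was highest in every group. MMP17 was 2.36-fold higher with COMBO (log2 change 1.24, SE 0.10, edgeR adjusted p = 1.2e-07). MMP24 was scarce, with 7.24, 7.12 and 7.28 CPM in COMBO, 5.28, 4.16 and 5.30 in SEL201, 5.28, 6.52 and 6.25 in OTX015 and 5.10, 4.69 and 5.80 in UNTREATED libraries. Its COMBO libraries lay above all others (log2 change 0.47, SE 0.15, edgeR adjusted p = 0.014, and 0.059 without UNTREATED replicate 2).

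Of the collagenases, which can cut fibrillar collagen, MMP8 had 8.70, 8.41 and 9.20 CPM in COMBO, 34.5, 32.05 and 31.8 in SEL201, 11.4, 12.5 and 14.3 in OTX015 and 55.9, 53.5 and 49.7 in UNTREATED libraries. No 2 groups overlapped. MMP8 was 6.06-fold lower with COMBO (log2 change -2.60, SE 0.10, edgeR adjusted p = 1.2e-10), and its log2 change was -2.06 with OTX015 and -0.69 with SEL201. MMP13 had 2.33, 2.40 and 2.51 CPM in COMBO, 5.99, 6.61 and 4.76 in SEL201, 4.80, 3.69 and 3.10 in OTX015 and 13.6, 18.2 and 13.3 in UNTREATED libraries. COMBO was lowest, and OTX015 overlapped SEL201 by 1 library. The COMBO change was -2.64 (SE 0.20, edgeR adjusted p = 6.5e-08), from 38 to 54 counts per COMBO library. MMP19 fell by 1.01 on the log2 scale with COMBO (adjusted p = 0.00012) and by 0.84 with OTX015.

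MMP1, the interstitial collagenase, had 292, 369 and 154 CPM in COMBO, 242, 273 and 115 in SEL201, 301, 399.7 and 141 in OTX015 and 213, 285 and 129.8 in UNTREATED libraries. The number 3 library was lowest in every group, and all groups overlapped. Its COMBO change of 0.38 (SE 0.40) had an adjusted p of 0.44, and with the replicate block it was 0.36 (SE 0.05, adjusted p = 4.6e-07). Without the number 3 libraries the MMP1 change was 0.41 (adjusted p = 0.024). MMP10, a stromelysin, had 3.32, 4.85 and 5.42 CPM in COMBO, 4.45, 4.86 and 2.81 in SEL201, 5.80, 7.48 and 1.93 in OTX015 and 10.9, 12.8 and 3.08 in UNTREATED libraries, so that UNTREATED overlapped the other groups through its number 3 library alone. The COMBO change was -1.01 (SE 0.47, adjusted p = 0.079), or -0.91 with the replicate block (adjusted p = 0.0032) and -1.54 without the number 3 libraries (adjusted p = 2.6e-05). The genes MMP1, MMP8, MMP10 and MMP13 all lie on chromosome 11. Summed over the 8 MMPs of the rule, without MMP9, the level was 1054 ± 43.1 CPM in COMBO, 787 ± 63.3 in SEL201, 909 ± 87.9 in OTX015 and 621 ± 66.3 in UNTREATED (SD, n = 3). Most of it came from MMP1, MMP15 and MMP17.

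Among the 4 ADAM genes, ADAM8, an active sheddase, had 11.4, 10.96 and 13.8 CPM in COMBO, 20.9, 15.5 and 21.6 in SEL201, 16.7, 13.7 and 14.5 in OTX015 and 22.6, 22.3 and 24.6 in UNTREATED libraries. COMBO lay below SEL201 and UNTREATED and overlapped OTX015 by 1 library. The COMBO change was -0.95 (SE 0.14, edgeR adjusted p = 4e-05) and the OTX015 change -0.63 (adjusted p = 0.0016). ADAM22, which lacks protease activity and binds LGI1 at synapses, rose by 0.30 on the log2 scale with COMBO (adjusted p = 0.0001), 0.21 with OTX015 and 0.20 with SEL201, and the SEL201 call was lost without the number 3 libraries (adjusted p = 0.053). ADAM12, an active metalloprotease, was lower with OTX015 (-0.20, adjusted p = 0.0075) and had a COMBO change of 0.02 (SE 0.06, adjusted p = 0.77). ADAM11, another inactive family member, had a COMBO change of -0.26 (adjusted p = 0.052, or 0.0037 with the replicate block).

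Of the 16 ADAMTS and ADAMTS-like genes, 13 were lower and 1 was higher with COMBO, 11 were lower and 2 higher with OTX015, and 6 were lower and 1 higher with SEL201. Among all genes these shares were 29.6% and 28.3% with COMBO, 24.7% and 23.3% with OTX015, and 11.1% and 10.1% with SEL201. The block gave 13 lower and 2 higher with COMBO (34.2% and 33.5% of all genes), 13 and 2 with OTX015 (29.9% and 29.7%), and 9 and 1 with SEL201 (19.1% and 18%). ADAMTS4, an aggrecanase, had 7.28, 5.78 and 6.35 CPM in COMBO, 14.8, 15.2 and 13.05 in SEL201, 11.6, 11.3 and 11.1 in OTX015 and 39.7, 37.7 and 40.4 in UNTREATED libraries. No 2 groups overlapped, and UNTREATED was set well above the rest. The level was 6.05-fold lower with COMBO (log2 change -2.60, SE 0.11, edgeR adjusted p = 2.4e-10), with log2 changes of -1.79 with OTX015 and -1.45 with SEL201. ADAMTSL1, an ADAMTS-like protein without a protease domain, had 4.35, 8.92 and 6.68 CPM in COMBO, 11.7, 10.6 and 12.2 in SEL201, 6.70, 10.4 and 8.13 in OTX015 and 26.2, 33.4 and 35.2 in UNTREATED libraries. All treated libraries lay below UNTREATED, and COMBO overlapped OTX015. Its COMBO change was -2.25 (SE 0.22, edgeR adjusted p = 7.6e-07).

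ADAMTSL3, also without a protease domain, had 2.24, 2.77 and 1.52 CPM in COMBO, 4.84, 3.56 and 5.37 in SEL201, 3.90, 3.56 and 4.67 in OTX015 and 7.76, 9.67 and 8.19 in UNTREATED libraries. It rested on few reads, 23 to 60 counts per COMBO library, and fell by 1.94 on the log2 scale with COMBO (SE 0.21, edgeR adjusted p = 2.9e-06). ADAMTS6 fell by 1.55 with COMBO, 1.46 with OTX015 and 1.31 with SEL201, so that its levels in the treated groups overlapped, at 5.42 ± 0.73 CPM in COMBO, 6.41 ± 2.37 in SEL201 and 5.73 ± 0.46 in OTX015, against 15.8 ± 2.30 in UNTREATED (SD, n = 3). ADAMTSL4, a fibrillin-binding protein, fell by 1.49, ADAMTS12 by 1.40 and ADAMTS16 by 1.31 with COMBO. Smaller falls with COMBO were seen in ADAMTS1 (-0.78), ADAMTS3 (-0.52), a procollagen N-proteinase, ADAMTSL5 (-0.50), ADAMTS7 (-0.47), ADAMTS20 (-0.45) and ADAMTS15 (-0.29). The ADAMTS20 call was lost without COMBO replicate 3 or UNTREATED replicate 1 (adjusted p = 0.06 and 0.075). ADAMTS1 was lower with OTX015 as well (-0.59, adjusted p = 0.01, and 0.063 without UNTREATED replicate 1).

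ADAMTS9, which cuts versican and aggrecan, was the ADAMTS gene that rose with COMBO, with 100.1, 81.5 and 94.5 CPM in COMBO and 81.1, 71.1 and 66.1 CPM in UNTREATED. Each COMBO value was above each UNTREATED value, a log2 difference of 0.34 (SE 0.09, edgeR adjusted p = 0.0052). Its change was 0.31 with OTX015 (adjusted p = 0.01, and 0.12 without the number 3 libraries) and 0.35 with SEL201 (adjusted p = 0.013, and 0.065 without SEL201 replicate 1 or 0.053 without UNTREATED replicate 3). ADAMTS17 was higher with OTX015 (0.39, adjusted p = 0.012) and had a COMBO change of 0.27 (adjusted p = 0.056, or 0.015 with the replicate block). Its OTX015 call was lost without OTX015 replicate 3 or UNTREATED replicate 2, and without the number 3 libraries together. ADAMTS13, the protease of von Willebrand factor, had a COMBO change of -0.31 (SE 0.18, adjusted p = 0.15).

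The 2 members that matched by spelling were counted with the rest. MMP24OS, which lies opposite MMP24, had 196, 222 and 193 CPM in COMBO, 146, 168 and 152 in SEL201, 160.4, 183 and 146 in OTX015 and 125, 128 and 126 in UNTREATED libraries. It rose by 0.69 on the log2 scale with COMBO (SE 0.08, edgeR adjusted p = 4.7e-06), and every treated library lay above UNTREATED. Its SEL201 change of 0.29 (adjusted p = 0.018) lost the call without SEL201 replicate 2 or UNTREATED replicate 1 (adjusted p = 0.082 and 0.053). ADAM1A is a pseudogene all of whose exon bases overlap MAPKAPK5 on the same strand, so its counts are uncertain. It had a COMBO change of 0.23 (adjusted p = 0.11).

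Levels can be set beside each other per kilobase of exon. In COMBO libraries the highest were MMP24OS at 225 CPM per kilobase, MMP17 at 187 and MMP1 at 138. In UNTREATED libraries the highest were MMP24OS at 140.0 CPM per kilobase, LOXL4 at 114, MMP1 at 106, LAMB3 at 97.8 and MMP17 at 79.1. LOXL4 stood at place 8 of 64 by level per kilobase in COMBO, against place 2 in UNTREATED, and COL6A3 at place 30, against place 11. MMP15 stood at place 6 in COMBO, against place 15 in UNTREATED. The median level of the 64 genes was 4.80 CPM per kilobase in COMBO, 7.69 in SEL201, 5.67 in OTX015 and 8.18 in UNTREATED.

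**Figure D4:**
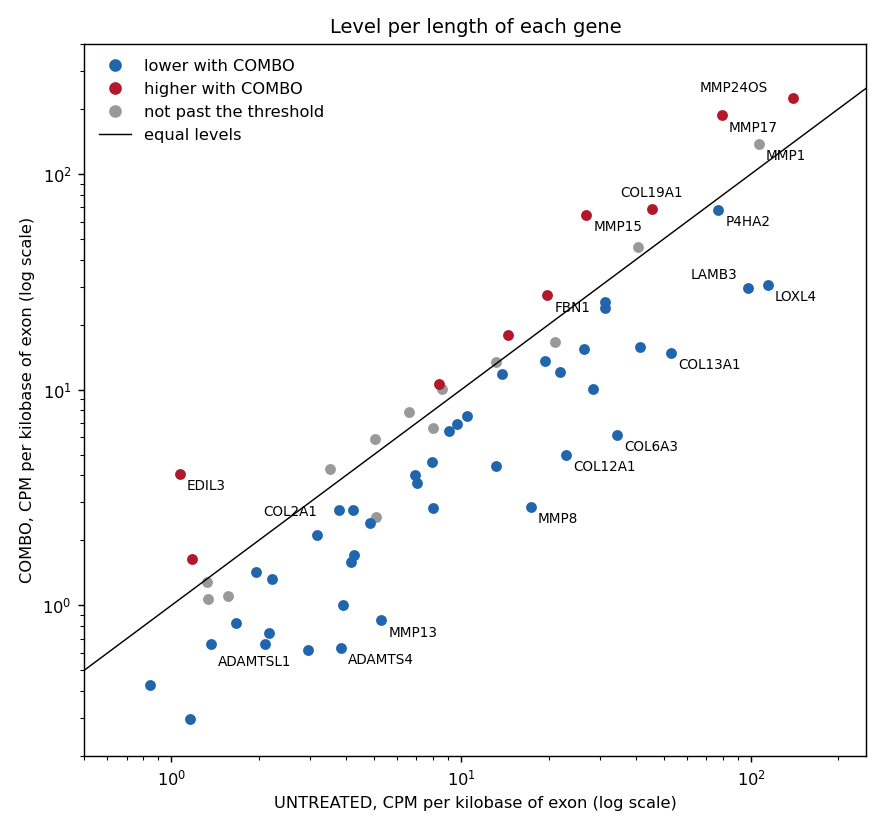
Mean level per kilobase of exon of 63 of the 64 genes in COMBO (vertical axis) against UNTREATED (horizontal axis), both on log scales in CPM per kilobase, coloured by the COMBO call; the line marks equal levels. LOXL4, LAMB3 and COL6A3 lie far below the line and EDIL3, MMP15 and MMP17 above it.

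Against SEL201, COMBO raised 8 of the 64 genes and lowered 30, where 18.8% of all genes were higher and 21.2% lower. This comparison asks what OTX015 adds to SEL201. Falls included MMP8 (log2 change -1.91, SE 0.10, edgeR adjusted p = 1.2e-08), FBLN1 (-1.50), COL6A3 (-1.38), MMP13 (-1.27) and ADAMTS4 (-1.15). COL12A1 fell by 1.13, ADAMTS16 by 1.1, ADAMTSL3 by 1.04, LAMB3 by 1.02, COL13A1 by 0.98 and COL8A1 by 0.93 in this comparison. The rises were EDIL3 (1.41, edgeR adjusted p = 0.00029), MMP15 (0.64), MMP24 (0.55), MMP17 (0.48), FBN1 (0.40), ADAM1A (0.39), MMP24OS (0.39) and COL19A1 (0.16). The COL19A1 rise lost the call without COMBO replicate 1 or SEL201 replicate 3 (adjusted p = 0.085 and 0.062), and that of ADAM1A without COMBO replicate 3 or SEL201 replicate 2 or 3 (adjusted p = 0.054 to 0.074). Both calls were also lost without the number 3 libraries together.

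Against OTX015, COMBO raised 5 of the 64 genes and lowered 9, where 2.9% of all genes were higher and 4.01% lower. This comparison asks what SEL201 adds to OTX015. COL6A3 had the largest fall, at 67.2 ± 6.98 CPM in COMBO and 130.2 ± 9.51 CPM in OTX015 (SD, n = 3; log2 change -0.96, SE 0.10, edgeR adjusted p = 0.00013). LOXL4 fell by 0.89 (adjusted p = 3.8e-05), ADAMTSL3 by 0.86 (adjusted p = 0.037), COL13A1 by 0.84 (adjusted p = 0.0071), ADAMTS4 by 0.81 (adjusted p = 0.00068) and MMP8 by 0.54 (adjusted p = 0.0067, and 0.052 when only the COMBO and OTX015 groups were fitted). COL2A1 fell by 0.53, FBLN1 by 0.49 and ADAMTS3 by 0.33. The rises were MMP17 (0.39), MMP24OS (0.32), FBN1 (0.26), MMP15 (0.26) and ADAM12 (0.23). Leaving out 1 COMBO or OTX015 library gave 1 to 3 rises in all, with no share over all genes set beside this count. The falls of COL6A3, LOXL4, COL13A1 and ADAMTS4 stayed called in all 19 alternatives. The MMP15 call was lost without COMBO replicate 3 or OTX015 replicate 2, that of MMP17 without COMBO replicate 3 or OTX015 replicate 1 or 2, and that of COL2A1 without COMBO replicate 3 or OTX015 replicate 1. The calls of ADAM12, ADAMTS3, ADAMTSL3, FBLN1, FBN1 and MMP24OS were each lost on leaving out any of 4 or more libraries (adjusted p = 0.051 to 0.12). With the replicate block 9 were higher and 24 lower (10% and 12.2% of all genes), and LAMB3 (-0.24, adjusted p = 5.4e-05), ADAMTS12 (-0.39, adjusted p = 2.8e-07) and EDIL3 (0.72, adjusted p = 0.00023) were then among them.

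The interaction is the COMBO log2 change less the added log2 changes of SEL201 and OTX015, and a value of 0 means that they are equal. Only COL2A1, the main collagen of cartilage, was called, and 0 members were above the sum, where 0.21% of all genes were above and 0.0699% below it. At an unadjusted p under 0.05 there were 16 members in either direction (9.17% of all genes), and DESeq2 called 4 above the sum (1.01% of all genes) and 3 below it (0.373% of all genes). COL2A1 had 14.3, 14.7 and 13.2 CPM in COMBO, 26.9, 24.8 and 20.5 in SEL201, 22.1, 19.7 and 19.2 in OTX015 and 21.3, 18.6 and 18.2 in UNTREATED libraries. COMBO lay below all other libraries, OTX015 overlapped UNTREATED, and so did SEL201. Its changes were -0.46 with COMBO (SE 0.12, edgeR adjusted p = 0.0036), 0.07 with OTX015 and 0.32 with SEL201, and the interaction was -0.85 (SE 0.16, edgeR adjusted p = 0.048). It was called in 1 of the 12 fits that leave out a library.

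With the replicate block the interaction was called in 13 members above the sum and 7 below it (4.02% and 2.73% of all genes). COMBO changes and single-agent changes share the UNTREATED libraries, so their values are given side by side. LAMB3 had -1.72 with COMBO, -0.70 with SEL201 and -1.48 with OTX015, and its blocked interaction was 0.46 (SE 0.06, edgeR adjusted p = 9.3e-07). COL12A1 had -2.21 with COMBO, -1.08 with SEL201 and -1.90 with OTX015, with a blocked interaction of 0.78 (SE 0.10, adjusted p = 1.9e-06). ADAMTS6 had -1.55, -1.31 and -1.46 in the same order, with a blocked interaction of 1.26 (SE 0.23, adjusted p = 0.00046). MMP17 had 1.24 with COMBO, 0.75 with SEL201 and 0.84 with OTX015, and a blocked interaction of -0.37 (SE 0.06, adjusted p = 5.4e-05). MMP15 had 1.26, 0.62 and 1 in that order, with a blocked interaction of -0.36 (SE 0.06, adjusted p = 0.00014). COL6A3 was not called, with a blocked interaction of 0.14 (SE 0.07, adjusted p = 0.28), and neither was MMP8, with 0.15 (SE 0.14, adjusted p = 0.63).

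**Figure D5:**
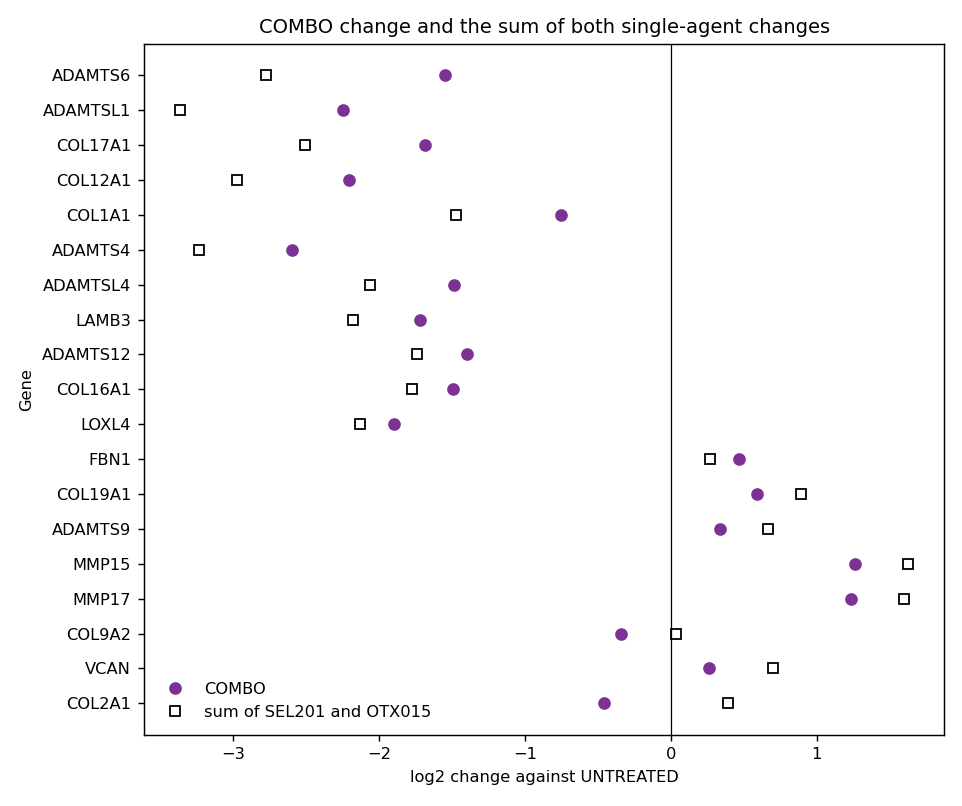
Log2 change against UNTREATED with COMBO (purple circles) and the sum of the SEL201 and OTX015 changes (open squares) on the horizontal axis for 19 genes, in rows, called in the interaction with the replicate block. For LAMB3 and COL12A1 the circle lies nearer to 0 than the square, whereas for COL2A1 they lie on opposite sides of 0.

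Other genes of the same matrix, listed by role and outside the symbol rule, were counted in the same fit. Of 25 measured matrix glycoproteins and proteoglycans, 6 rose and 15 fell with COMBO, with a median log2 change of -0.64. For this list and the 2 further lists below, the shares over all genes were 28.3% higher and 29.6% lower with COMBO. LTBP2, which binds fibrillin microfibrils, averaged 36.1 ± 2.15 CPM in COMBO, 104 ± 9.17 in SEL201, 67.2 ± 4.85 in OTX015 and 242 ± 21.3 in UNTREATED (SD, n = 3; COMBO change -2.74, edgeR adjusted p = 2.3e-11). The small proteoglycans LUM and DCN, which coat collagen fibrils, fell by 2.55 and 2.41, and MFAP2, a microfibril protein, fell by 2.21. SDC2, a cell-surface heparan sulphate proteoglycan, rose by 1.15 and ACAN, the cartilage proteoglycan aggrecan, by 1.02 with COMBO. Of 10 measured plasminogen, cathepsin and other matrix-degrading genes, 3 rose and 5 fell, with SULF1, a heparan sulphatase, at -2.42 and the serine protease HTRA1 at 1.86. Of 8 measured genes of collagen folding and procollagen processing, 2 rose and 4 fell, with a median of -0.24. DCN and LUM are also in the list of fibroblast and other mesenchymal markers, of which 6 of 8 were measured (PDGFRA, PDGFRB, DCN, LUM, ACTA2 and TAGLN). With COMBO, PDGFRB was lower too, PDGFRA was higher, and ACTA2 and TAGLN were not called. Their summed level was 120.7 to 131.9 CPM in COMBO, 151.5 to 165.8 CPM in SEL201, 129.2 to 140.9 CPM in OTX015 and 174 to 209.9 CPM in UNTREATED, and KRT8 had 93.07 to 102 CPM in COMBO, 120.4 to 126.9 CPM in SEL201, 107 to 114.9 CPM in OTX015 and 192.9 to 204 CPM in UNTREATED. The part of these shifts in the matrix results was not tested.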

How the data were processed

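Stranded libraries of polyadenylated RNA from 12 A375 samples were read as pairs, per the labels' protocols. The authors deposited raw counts of reads per gene in 1 table with a column for each library. Tools listed in the submitters' processing notes are FastQC, Trimmomatic, STAR (2.5.4b), SAMtools (1.9), featureCounts and DESeq2, with the build hg19. For their roles, the annotation, filters and the strand setting, no statement is given in the sources used here. The deposited counts were fitted with edgeR 4.0.16 (R 4.3.3) by its quasi-likelihood functions, with TMM scaling and filterByExpr. The fit held group means over all 12 libraries, and p-values were Benjamini-Hochberg adjusted over 8579 genes, with 0.05 as the threshold. The 6 contrasts set each treatment against UNTREATED and COMBO against each agent, and tested the interaction. SE was taken as the log2 change over the root of F. The edgeR fit without the replicate block was run on simulated counts, drawn without pairing of replicates. The blocked fit, DESeq2 and the other steps were not tested in this way. CPM used TMM library sizes. Lengths were union exons of GENCODE v29, whose exon coordinates also gave the overlaps with other genes. Promoter windows came from RefSeq (GRCh38.p14) by symbol. Members and lists were chosen with earlier results of these data known. Per contrast, members were named by a rule of up to 12 largest rises and 12 largest falls, and for each role its member with the lowest adjusted p in COMBO against UNTREATED. Not every member under this rule has its SEL201 or OTX015 change printed. For COMBO against UNTREATED further members were named to account for each role.

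Libraries of a group differed by more than sampling noise, with a chi-square per degree of freedom of at least 6.34. Replicate numbers were checked for pairing by correlating, across genes, each library's deviation from its group mean. The 18 pairs with equal numbers gave r of 0.26 to 0.57, the 36 pairs with unequal numbers gave -0.46 to 0.19, and each of the 12 libraries was most like one of its own number. By this check of the data, and with no statement in the labels, the numbers pair the samples. The replicate block brought the biological coefficient of variation to 4.35%, against 7.92% without it. Alternatives used DESeq2 (1.42.0), RLE scaling, all genes unfiltered, a filter of at least 10 CPM in at least 3 libraries, the replicate block, the compared groups alone, no number 3 libraries, or 1 library fewer. Medians over all genes lay within 0.006 of 0 under each scaling. Each scaling takes most genes as unchanged, so a shift shared by most genes could not show in these medians. Planned protein comparisons were not made. The values of 1 member, which the counts include, are not reported here.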

Additional observations from a re-analysis of the deposited data

Results flagged for a closer look

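COL2A1 was singled out because its change with SEL201 differed with and without OTX015. The difference on the log2 scale was -0.848 (edgeR adjusted p = 0.048), with a SEL201 change of -0.53 in the presence of OTX015 and 0.32 without it. All 3 COMBO libraries (13.2 to 14.7 CPM) lay below all 3 OTX015 libraries (19.2 to 22.1 CPM), whereas SEL201 libraries (20.5 to 26.9 CPM) and UNTREATED libraries (18.2 to 21.3 CPM) overlapped. The adjusted p was 0.05 with RLE size factors and 0.051 to 0.14 in the 11 fits without 1 library that lost the call, and 9.4e-05 with the replicate block.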

How the results depend on the processing

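Counts of called members moved by over 1.5 times in 4 contrasts. With the replicate block, 10 members were higher with SEL201 against UNTREATED (18% of all genes, and 10.1% without the block). With COMBO against UNTREATED it gave 14 higher (33.5% of all genes, and 28.3% without the block). COMBO against OTX015 had 9 higher (10% and 2.9% in the same order) and 24 lower (12.2% and 4.01%). The interaction had 13 higher (4.02% and 0.21%) and 7 lower (2.73% and 0.0699%). With only the compared groups 3 were higher in COMBO against OTX015, and leaving out 1 library gave 1 to 6 higher and 5 to 12 lower. In the interaction, RLE size factors gave 0 lower, and DESeq2 gave 4 higher and 3 lower (1.01% and 0.373% of all genes). Leaving out the number 3 libraries together gave 2 higher and 2 lower there, and leaving out 1 library gave 0 to 1 higher and 0 to 1 lower. For the runs other than the block and DESeq2, shares over all genes are not set beside these counts. Those counts therefore do not tell whether the members moved more than all genes did. No called member changed direction in any alternative run. Of the members called, 19 of 26 with SEL201, 39 of 46 with OTX015, 45 of 51 with COMBO against UNTREATED, 33 of 38 with COMBO against SEL201, 4 of 14 with COMBO against OTX015 and 0 of 1 in the interaction stayed called in every alternative. No count of kept calls over all genes is set beside these, so they do not set the members apart from other genes. The cause of these losses was not tested. The block ended no call and added 13, 8, 9, 13, 19 and 19 calls in these 6 contrasts. Over all genes the block added calls too, with 19.1% lower with SEL201 against UNTREATED, in place of 11.1% without it. Some members rested on few reads: the lowest member count in a library was 23, and 3 members had fewer than 50 counts in some library. Whether low counts bear on the lost calls was not tested.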
